A study of Mus musculus with 24 samples.

Results

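The Ragulator genes *Lamtor1*, *Lamtor2*, *Lamtor3*, *Lamtor4* and *Lamtor5* encode the 5 subunits of one lysosomal complex, and they were taken by gene name from the 55487 genes of the deposited table. All 5 were expressed in every library and passed the filter on low counts, so no member was lost. mRNA was measured in 24 libraries of mouse embryonic fibroblasts (MEFs), WT or *tfeb tfe3* DKO, each treated with DMSO as the vehicle, with torin1 (an inhibitor of MTOR) or with MK-8722 (an activator of AMPK), with 4 libraries in each of the 6 groups. DKO cells lack the transcription factors TFEB and TFE3, and the contrast of interest was how far the drug effects differ between the genotypes. Each genotype is 1 cell line obtained from another laboratory, and the 4 libraries of a group carry 4 different passage numbers, so that p-values measure the spread between cultures of a line and the deletion cannot be told apart from other differences between the lines. In such bulk RNA, more cells with a transcript and more transcript per cell cannot be told apart.

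Ragulator is the anchor that holds the nutrient-sensing machinery on the lysosome. LAMTOR1 is attached to the lysosomal membrane by lipids and wraps around a pair of heterodimers, LAMTOR2-LAMTOR3 and LAMTOR4-LAMTOR5. The assembled complex binds the RRAG GTPases, which recruit MTORC1 and, with help from folliculin, TFEB and TFE3 themselves. LAMTOR2 and LAMTOR3 are also known as a scaffold that brings MEK and ERK kinases to late endosomes. TFEB and TFE3 bind E-box elements with the core CACGTG in promoters of lysosomal genes.

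On GRCm38, *Lamtor1* (ENSMUSG00000030842) lies at chr7:101905904-101926675 on the plus strand and *Lamtor4* (ENSMUSG00000050552) at chr5:138255482-138259398 on the plus strand. The other members are all on chromosome 3: *Lamtor2* (ENSMUSG00000028062) at chr3:88549819-88553074 on the minus strand, *Lamtor5* (ENSMUSG00000087260) at chr3:107278858-107284082 on the plus strand and *Lamtor3* (ENSMUSG00000091512) at chr3:137918506-137928900 on the plus strand. Reads of *Lamtor1* may be mixed with those of *Lrrc51*, which shares 13692 bp with it on the other strand but had only 24 to 73 estimated counts per library. A *Lamtor3* pseudogene, *Lamtor3-ps*, held at most 9.233 estimated counts in any library.

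Promoter windows of RefSeq genes on GRCm38.p6 were at hand for 4 of the 5 members, all but *Lamtor3*. Both windows that held the core CACGTG are printed. They are those of *Lamtor1* and *Lamtor4*. Whether the motif bears on the drug effects was not tested. Shown are the 250 bases before the RefSeq start, 5′ to 3′ on the strand of the gene, with CACGTG in capitals. The *Lamtor1* window covers chr7:101905587-101905836 and the *Lamtor4* window chr5:138255232-138255481, both on the plus strand.
Lamtor1: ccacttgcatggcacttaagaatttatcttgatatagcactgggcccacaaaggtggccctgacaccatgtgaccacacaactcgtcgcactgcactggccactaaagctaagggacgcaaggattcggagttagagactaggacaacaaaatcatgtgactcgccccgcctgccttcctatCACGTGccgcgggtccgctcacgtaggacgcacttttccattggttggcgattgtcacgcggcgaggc
Lamtor4: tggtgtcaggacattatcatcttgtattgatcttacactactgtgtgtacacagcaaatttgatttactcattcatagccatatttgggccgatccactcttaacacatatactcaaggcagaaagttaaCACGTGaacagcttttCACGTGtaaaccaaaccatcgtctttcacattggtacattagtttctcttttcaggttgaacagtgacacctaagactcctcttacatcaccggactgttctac
In *Lamtor1* the core begins 68 bases before the start, and in *Lamtor4* it occurs at 120 and at 104 bases before the start. The windows of *Lamtor2* and *Lamtor5* did not hold these 6 letters. Over all promoter windows of 300 bases, 7.15% of 32851 held CACGTG, which reads the same on both strands. The longer form GTCACGTG, searched on both strands and containing the core, was in none of the 4 windows and in 2.247% of all. TCATGTGA, on either strand and not overlapping the core, was found 98 bases before the start of *Lamtor1* and 108 bases before that of *Lamtor2*, and 0.986% of all windows held it. These motifs were chosen after the sequences had been seen, and a match of letters does not show that a factor binds there.

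Total estimated counts per library ranged from 24668921 to 33332562, and RNA integrity numbers from 7.9 to 9.9. The 7.9 was that of DKO MK-8722 replicate 3, and the next lowest number was 9.7. As a check of the labels, *Tfeb* was at 14.01 to 25.0 CPM (counts scaled to a common library total) in the WT libraries and at 1.34 to 2.65 CPM in the DKO libraries. *Tfe3* was not lower in DKO, at 120 ± 1.17 CPM in WT and 124 ± 2.11 CPM in DKO under DMSO (SD, n = 4), and the count of a whole gene does not show which exons the reads cover. The 3 WT libraries of passage 11 stood apart, deviating together from their groups at correlations of 0.624 to 0.657 over all genes tested, against 0.0221 to 0.317 for libraries of the other WT passages, and calls of the members that changed without them are given beside the results. The 7 fibroblast markers summed to 3605 to 6450 TPM (transcripts scaled by length and to a common total) over the libraries, whereas the epithelial, immune and endothelial markers each summed to at most 1.51 TPM, with *Cdh1*, *Krt14*, *Ptprc*, *Adgre1*, *Csf1r*, *Pecam1*, *Cdh5* and *Kdr* under 1 TPM in every library.

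The subunit mRNAs were all abundant but not equally so. On the TPM scale, which divides by transcript length and so allows genes to be compared, the mean over all libraries was 136 for *Lamtor1*, 97.3 for *Lamtor2*, 77.2 for *Lamtor5*, 60.9 for *Lamtor3* and 37.0 for *Lamtor4*. These levels put the 5 genes between the 85.1 and the 96.0 percentile of genes with counts. *Lamtor1*, the scaffold, stood first in all 6 groups and *Lamtor4* last. In WT under DMSO, the ranges of *Lamtor1* (113 to 117 TPM) and *Lamtor2* (102.4 to 117 TPM) overlapped, and each lower neighbour in the order was apart. *Lamtor3* and *Lamtor5* exchanged places in 1 group: under MK-8722 in WT *Lamtor3* reached 94.7 ± 5.15 TPM and overlapped *Lamtor5* at 86.3 ± 2.18 TPM. Under torin1 in DKO, *Lamtor3* was at 28.9 ± 1.43 TPM and overlapped *Lamtor4* at 27.5 ± 1.13 TPM (SD, n = 4). The summed TPM of the 5 genes was 403 ± 8.81 in WT and 413 ± 10.7 in DKO under DMSO, 512 ± 14.6 in WT and 397 ± 11.3 in DKO under MK-8722, and 416 ± 10.6 in WT and 308 ± 7.04 in DKO under torin1.

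**Figure D1:**
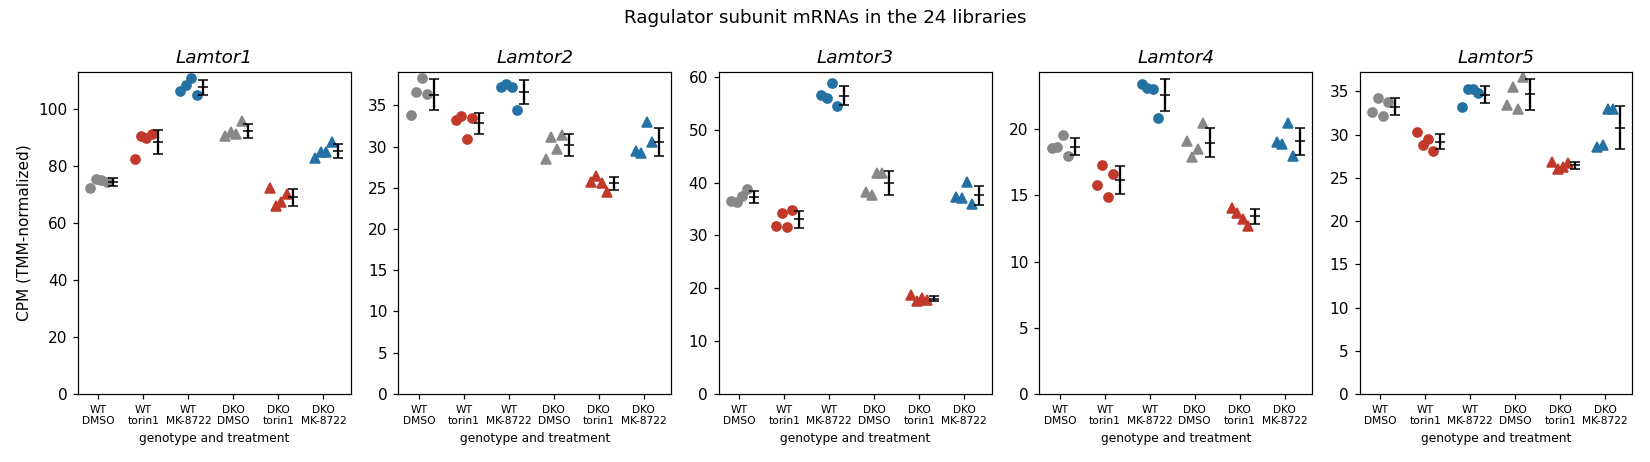
TMM-normalized CPM (y axis, from 0) of each Ragulator gene in each library, by genotype and treatment (x axis). Circles are WT and triangles DKO libraries, grey is DMSO, red torin1 and blue MK-8722, and the black marks give mean and SD of 4 libraries. *Lamtor3* in DKO with torin1 lies at 17.6 to 18.7 CPM, below all of its other libraries.

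The scaffold gene *Lamtor1* lay above its controls in treated WT cells and below them in treated DKO cells. In WT its CPM under DMSO was 72.4, 75.3, 75.1 and 74.3, and under MK-8722 it was 106, 109, 111 and 105. With torin1, WT libraries held 82.3, 90.7, 90.0 and 91.3 CPM. Thus every drug-treated WT library was above every DMSO library, the first torin1 replicate being the lowest of the treated ones. In DKO, *Lamtor1* stood at 90.4, 92.1, 91.2 and 95.9 CPM under DMSO, already above the untreated WT cells. It was at 72.3, 66.0, 67.3 and 70.3 CPM with torin1 and at 82.77, 84.95, 85.04 and 88.46 CPM with MK-8722. Both sets of treated DKO libraries lay below the DMSO libraries without overlap. The effects of torin1 in WT (log2 0.25) and of MK-8722 in DKO (log2 -0.12) were less than 1.2-fold. How many of all genes were apart in this way was not counted, so such separations, here and for the other members, are descriptions only.

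*Lamtor3* encodes the MEK-binding partner of LAMTOR2. WT libraries were at 36.6, 36.3, 37.5 and 38.8 CPM under DMSO. MK-8722 libraries of WT were at 56.5, 55.9, 58.9 and 54.4 CPM, and torin1 libraries of WT at 31.8, 34.2, 31.6 and 34.7 CPM. The MK-8722 libraries were therefore above, and the torin1 libraries below, all 4 of their controls. In DKO the values were 38.2, 37.6, 41.9 and 41.7 CPM under DMSO and 37.4, 37.1, 40.1 and 35.8 CPM under MK-8722, and these groups overlapped. With torin1 the DKO libraries fell to 18.7, 17.6, 18.1 and 17.8 CPM, less than any other library of the data set.

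*Lamtor4*, a subunit of the other heterodimer, followed *Lamtor3* on a smaller scale. Its CPM in WT was 18.6, 18.6, 19.6 and 17.96 under DMSO and 23.4, 23.1, 23.02 and 20.8 under MK-8722. With torin1 it was 15.8, 17.3, 14.9 and 16.6 in WT. The fourth MK-8722 replicate was the closest to the controls, and no treated library overlapped them. DKO libraries held 19.1, 17.9, 18.5 and 20.5 CPM under DMSO, 14.04, 13.6, 13.2 and 12.7 CPM with torin1, and 19.02, 18.9, 20.5 and 17.96 CPM with MK-8722. Only the torin1 group of DKO stood apart from its controls.

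The remaining subunits, *Lamtor2* and *Lamtor5*, varied less. In WT, *Lamtor2* stood at 36.3 ± 1.89 CPM for DMSO, 32.8 ± 1.30 CPM for torin1 and 36.6 ± 1.48 CPM for MK-8722 (SD, n = 4). In DKO the *Lamtor2* values were 30.2 ± 1.32, 25.5 ± 0.787 and 30.5 ± 1.69 CPM in the same order. *Lamtor5* was at 33.2 ± 0.969, 29.2 ± 0.910 and 34.6 ± 1.00 CPM in WT, and at 34.7 ± 1.75, 26.5 ± 0.406 and 30.8 ± 2.46 CPM in DKO. Torin1 libraries were the lowest for both genes in either genotype.

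Effects of the drugs were tested with edgeR's quasi-likelihood test over 15401 genes, and calls required an adjusted p below 0.05 together with a 1.2-fold difference or more. MK-8722 in WT raised 3 of the 5 members, where 10.3% of all genes tested were called higher and 5.87% lower. *Lamtor3* rose by a log2 fold change of 0.60 ± 0.04 (SE; edgeR adjusted p = 5.26e-10), *Lamtor1* by 0.53 ± 0.04 (edgeR adjusted p = 1.45e-10) and *Lamtor4* by 0.27 ± 0.06 (edgeR adjusted p = 0.000581). *Lamtor4* was just past the fold threshold at 1.21-fold, and its call was lost without WT DMSO replicate 4, WT MK-8722 replicate 1 or replicate 2, where the lowest value was 0.25, and without the WT libraries of passage 11 (0.26). *Lamtor2* at 0.01 (95% CI -0.08 to 0.11) and *Lamtor5* at 0.06 (95% CI -0.04 to 0.16) did not pass. With MK-8722 in DKO, edgeR called 0 of the 5, as did DESeq2 and limma voom, where 5.47% of all genes were called higher and 3.21% lower. At an unadjusted p under 0.05 there were 2, *Lamtor1* at -0.12 (edgeR adjusted p = 0.0278) and *Lamtor5* at -0.17 (edgeR adjusted p = 0.0131), both under the fold threshold.

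Torin1 gave another picture. In WT, 26.6% of all genes were called higher and 20.5% lower, but edgeR, DESeq2 and limma voom each called 0 of the 5 members, since all fold changes were under 1.2. The edgeR unadjusted p was under 0.05 for 5 of 5. *Lamtor1* was at 0.25 ± 0.04 on the log2 scale, or 1.19-fold (edgeR adjusted p = 2.71e-06), just outside the fold threshold, whereas *Lamtor2* was at -0.14, *Lamtor3* at -0.17, *Lamtor4* at -0.21 and *Lamtor5* at -0.19. In DKO torin1 lowered 4 of the 5, where 23% of all genes were called higher and 20.2% lower. *Lamtor3* fell by 1.14 ± 0.05 on the log2 scale (edgeR adjusted p = 8.47e-15), *Lamtor4* fell by 0.50 ± 0.06 (edgeR adjusted p = 1.01e-07), *Lamtor1* fell by 0.42 ± 0.04 (edgeR adjusted p = 1.43e-09) and *Lamtor5* fell by 0.39 ± 0.05 (edgeR adjusted p = 2.52e-07). *Lamtor2* was at -0.24 ± 0.05, under the fold threshold.

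**Figure D2:**
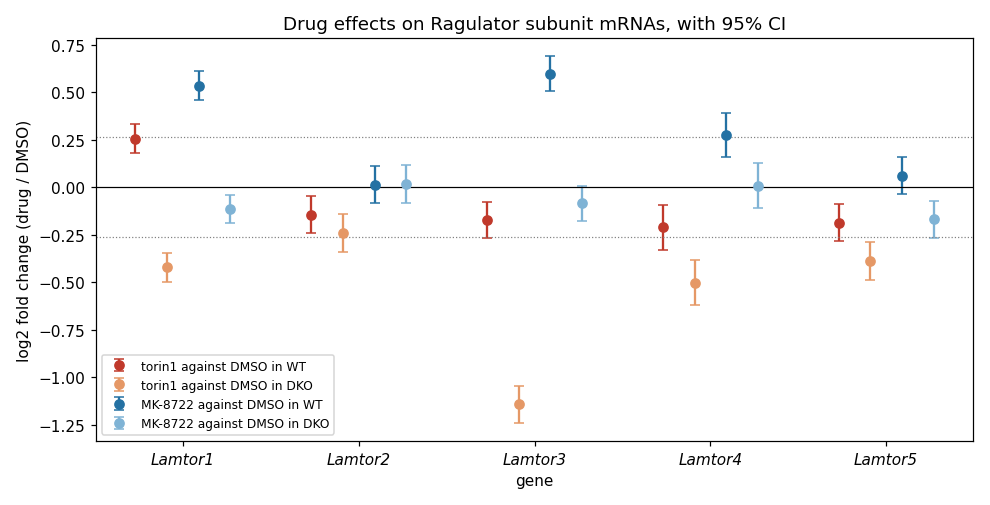
Log2 fold change of each drug against DMSO (y axis) for each Ragulator gene (x axis), in WT (dark) and DKO (light), red for torin1 and blue for MK-8722. Points are edgeR estimates with 95% confidence intervals and dotted lines mark a fold change of 1.2. *Lamtor1* with torin1 is at 0.25 in WT and at -0.42 in DKO.

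Libraries of equal passage within a genotype gave the same directions for the drug effects that were called. Matched by passage, the log2 ratio of torin1 to DMSO for *Lamtor3* in DKO ranged from -1.21 to -1.08. For *Lamtor1* in WT, where the effect was not called, this ratio ranged from 0.13 to 0.31. The ratio of MK-8722 to DMSO in WT lay between 0.57 and 0.62 for *Lamtor3*, between 0.50 and 0.58 for *Lamtor1* and between 0.17 and 0.36 for *Lamtor4*. In each of these cases all 4 passages moved the same way. For *Lamtor2* with MK-8722 in WT, 3 passages were higher and 1 was lower. With MK-8722 in DKO, *Lamtor2* and *Lamtor4* each had 2 passages higher and 2 lower.

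The question of the design, whether the drug effects differ between genotypes, was tested as an interaction. The effect of torin1 was lower in DKO than in WT for 3 of the 5 members, with 6.33% of all genes called lower and 4.68% higher in this comparison. The difference of the log2 fold changes was -0.97 ± 0.06 for *Lamtor3* (edgeR adjusted p = 4.55e-10), -0.68 ± 0.05 for *Lamtor1* (edgeR adjusted p = 4.92e-09) and -0.29 ± 0.08 for *Lamtor4* (edgeR adjusted p = 0.0161). Left-out libraries moved *Lamtor4* between -0.32 and -0.25, and its call was lost without WT DMSO replicate 4, WT torin1 replicate 1 or 2, DKO DMSO replicate 4 or DKO torin1 replicate 4, as well as without the WT libraries of passage 11 (-0.25, edgeR adjusted p = 0.0633). It was also lost without a low-count filter (-0.28), with the length offset (-0.255) and in the test against a fold change of 1.2. For *Lamtor3*, 3.3% of all genes tested had a lower value, and for *Lamtor1* 6.4%. *Lamtor5* was at -0.20 (edgeR adjusted p = 0.0422), under the fold threshold, and *Lamtor2* at -0.10 (95% CI -0.23 to 0.04).

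For MK-8722 the same 3 members had a lower effect in DKO, with 4.08% of all genes called lower and 1.42% higher. *Lamtor3* differed by -0.68 ± 0.06 (edgeR adjusted p = 7.42e-08), *Lamtor1* by -0.65 ± 0.05 (edgeR adjusted p = 9.56e-09) and *Lamtor4* by -0.27 ± 0.08 (edgeR adjusted p = 0.0436). The *Lamtor4* call did not hold in 12 of the 16 fits that left out 1 library (all but those without WT DMSO replicate 3, WT MK-8722 replicate 4, DKO DMSO replicate 2 or DKO MK-8722 replicate 3), nor in 10 of 16 other settings, with values between -0.30 and -0.23. *Lamtor5* stood at -0.23 (edgeR adjusted p = 0.0382), under the fold threshold, and *Lamtor2* at 0.00 (95% CI -0.13 to 0.14). Both responses share the DMSO libraries, so that their likeness is not independent.

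**Figure D3:**
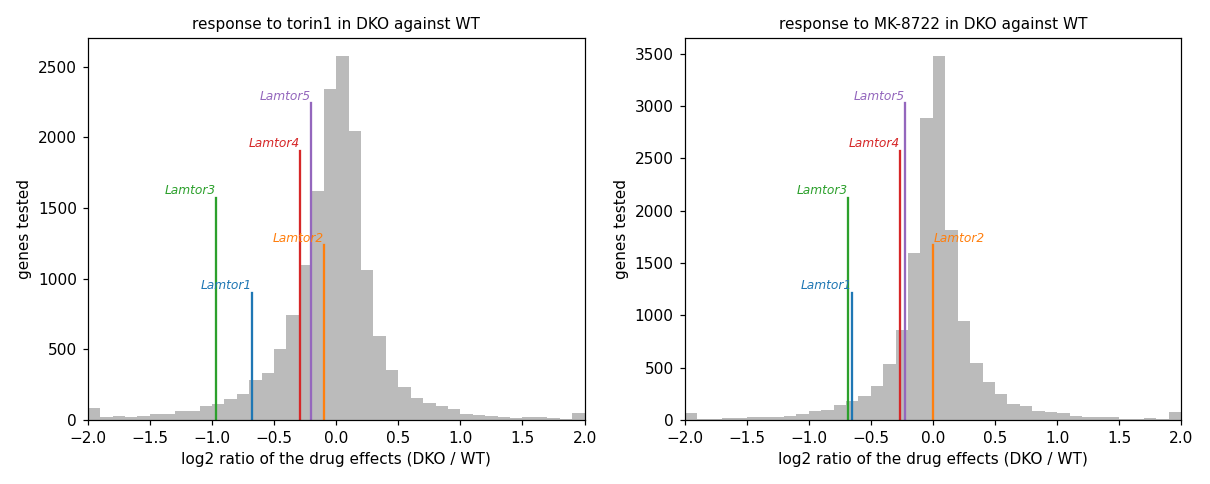
Number of genes tested (y axis) by the log2 ratio of the drug effect in DKO to that in WT (x axis, bins of 0.1), for torin1 on the left and MK-8722 on the right, with the 5 Ragulator genes as coloured lines whose height carries no value. The outermost bins also hold genes beyond the axis. *Lamtor1* and *Lamtor3* lie in the lower tail of both, at -0.68 and -0.97 for torin1.

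Levels were also compared between genotypes under each treatment. Under DMSO, *Lamtor1* was higher in DKO by 0.31 ± 0.04 on the log2 scale (edgeR adjusted p = 1.05e-07) and *Lamtor2* lower at -0.27 ± 0.05 (edgeR adjusted p = 3.54e-05), with 23.5% of all genes called higher and 24.6% lower. The *Lamtor2* call was lost without WT DMSO replicate 2 or 3 or DKO DMSO replicate 1, each leaving 0 members called lower. *Lamtor3*, *Lamtor4* and *Lamtor5* were within 0.10 of WT. Under torin1, 4 of the 5 were lower in DKO, against 27.8% of all genes called lower and 24% higher: *Lamtor3* at -0.87, *Lamtor2* and *Lamtor1* both at -0.36, and *Lamtor4* at -0.27. The *Lamtor4* call was lost in 7 of 15 other settings and without WT torin1 replicate 2 or 4 or DKO torin1 replicate 3 or 4 (-0.29 to -0.23 over left-out libraries). Under MK-8722, *Lamtor3* at -0.59 and *Lamtor1* at -0.33 were lower, where 25.4% of all genes were called lower and 23.3% higher. *Lamtor2* at -0.26, *Lamtor4* at -0.24 and *Lamtor5* at -0.17 were lower without reaching a fold of 1.2. Without WT MK-8722 replicate 4 or DKO MK-8722 replicate 3 the number called lower was 4 in place of 2. The latter library had the lowest RNA integrity number. How many of all genes were called lower in these fits is not given here. Without the WT libraries of passage 11, *Lamtor2* was called at -0.27. *Lamtor2* differed between the lines by nearly the same amount under DMSO and under MK-8722.

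Set directly against MK-8722, torin1 gave lower levels of *Lamtor1*, *Lamtor3* and *Lamtor4* in both genotypes. In WT the log2 differences were -0.28, -0.77 and -0.49, where 20% of all genes were called lower and 24.9% higher. In DKO they were -0.31, -1.06 and -0.51, where 19.3% were called lower and 21.1% higher. *Lamtor2* and *Lamtor5* were below 0 in both genotypes but under the fold threshold. In WT the *Lamtor1* call was lost with 10 counts in every library (-0.25), library size alone (-0.20) and the test against a fold change of 1.2, and in DKO with the last of these. *Lamtor5* in WT gained a call in 4 other settings, among them without the WT libraries of passage 11 (-0.28), and in 3 fits that left out 1 library. *Lamtor2* in DKO gained one in 2 settings, without a filter (-0.27) and at the false discovery rate alone, and in 3 fits that left out 1 library. The doses were those of the study, and the compounds have different targets.

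The share of each gene in the summed TPM of the 5 was examined with an exact two-sided permutation test of 4 against 4 libraries, whose smallest p is 0.0286. Adjusted over 35 tests, 22 shares differed, all of them with an adjusted p of 0.0455, the lowest reached. All 22 were at the smallest p, so the adjustment let them pass together or not at all. Comparisons also shared groups, so the 22 are not separate results. *Lamtor1* took 28.6% ± 0.192 in WT controls, 35.2% ± 1.28 after torin1 and 33.5% ± 0.449 after MK-8722 (SD, n = 4), both increases passing this test. In DKO its share was 33.9% ± 0.254 under DMSO, and with the drugs its difference from WT did not pass, at 35.4% ± 0.997 with torin1 (0.195 points above WT, exact permutation adjusted p = 0.853) and 33.2% ± 1.10 with MK-8722 (-0.315 points, exact permutation adjusted p = 0.788). *Lamtor3* took 14.8% ± 0.503 in WT under DMSO, rising to 18.5% ± 0.634 with MK-8722, and in DKO it fell from 15.8% ± 0.822 to 9.39% ± 0.301 with torin1. The share of its partner *Lamtor2* went the other way in those conditions. That share went from 27.1% ± 0.948 to 21.97% ± 0.361 with MK-8722 in WT and from 21.5% ± 0.524 to 25.1% ± 1.06 with torin1 in DKO. The log2 fold changes of *Lamtor2* itself were 0.01 and -0.24, the latter in the direction of *Lamtor3*. Shares sum to 100%, so a gain of one member lowers the others. The share of *Lamtor4* was 9.39% ± 0.301 in WT and 9.02% ± 0.358 in DKO under DMSO, and of its 7 comparisons those for torin1 against DMSO in WT and DKO against WT under torin1 passed.

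**Figure D4:**
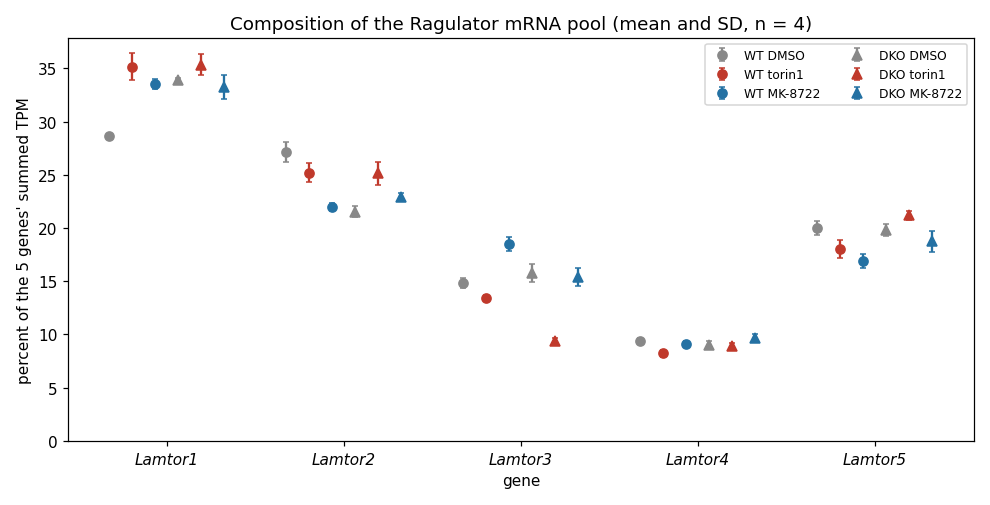
Percent of the summed TPM of the 5 Ragulator genes (y axis, from 0) held by each gene (x axis), as mean and SD of 4 libraries. Circles are WT and triangles DKO, grey is DMSO, red torin1 and blue MK-8722. The *Lamtor3* share lies between 9.39% in DKO with torin1 and 18.5% in WT with MK-8722.

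Within each gene, 1 transcript dominated. It held on average 95.2% of the TPM of *Lamtor1* (Lamtor1-201), 90.2% of *Lamtor4* (Lamtor4-201), 86.2% of *Lamtor5* (Lamtor5-202) and 80.3% of *Lamtor2* (Lamtor2-201). *Lamtor3* was the most divided, with 53.7% in Lamtor3-201 and 22.03% in Lamtor3-203, both protein-coding. Of 84 exact permutation tests on the 12 transcripts with a mean share of at least 5%, 0 passed after adjustment and 3 had an unadjusted p under 0.05. A smallest p of 0.0286 over so many tests leaves almost no room to pass, so this 0 says little about the transcripts. The 3 with an unadjusted p under 0.05 were Lamtor2-201 in DKO with each drug and Lamtor3-201 in DKO against WT under DMSO. The shares of Lamtor3-201 there were 50.5% ± 1.59 and 54.8% ± 1.13 (SD, n = 4, exact permutation adjusted p = 0.48). Short reads divide counts between transcripts of a gene only by estimate.

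Among the partners of Ragulator, the RRAG GTPases bind it directly. Torin1 in WT raised 3 of the 4, where 26.6% of all genes were called higher and 20.5% lower. *Rragd* rose by a log2 fold change of 2.10 ± 0.22, *Rragb* by 1.38 ± 0.14 and *Rragc* by 0.54 ± 0.04, while *Rraga* fell by 0.63 ± 0.04. MK-8722 in WT raised the same 3, with *Rragc* at 0.90 ± 0.04, where 10.3% of all genes were called higher and 5.87% lower. The torin1 response was lower in DKO for *Rragc* at -0.76 (edgeR adjusted p = 6.97e-09) and *Rragb* at -1.20 (edgeR adjusted p = 4.66e-05), where 6.33% of all genes were called lower. The MK-8722 response was lower for *Rragc* at -0.98 (edgeR adjusted p = 1.32e-10), where 4.08% of all genes were called lower. *Rraga* did not pass in either, at -0.01 and -0.05.

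The folliculin complex, which acts on RRAGC and RRAGD, had its 3 genes raised by both drugs in WT. Of all genes tested, 26.6% were called higher with torin1 and 10.3% with MK-8722. *Flcn* rose by 0.96 with torin1 and by 1.36 with MK-8722, *Fnip1* by 1.32 and 1.46, and *Fnip2* by 0.59 and 1.13. In DKO, *Flcn* fell by 0.60 with torin1, *Fnip2* rose by 0.32 and *Fnip1* was at -0.09. MK-8722 in DKO raised *Fnip2* by 0.29. The response of *Fnip1*, the median of the 3 genes for both drugs, was lower in DKO. Its difference was -1.41 for torin1 (edgeR adjusted p = 2.18e-13) and -1.27 for MK-8722 (edgeR adjusted p = 1.87e-12), sizes above those of any Ragulator gene. This comparison of size covers *Fnip1* alone. Of the 3 genes, 2 were called lower in the torin1 response and 3 in the MK-8722 response, beside 6.33% and 4.08% of all genes. *Slc38a9*, the lysosomal arginine sensor that contacts Ragulator, rose by 0.44 with torin1 in WT and by 0.34 in DKO, and the differences between genotypes did not pass for either drug (-0.10 and -0.03).

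In other lists of the pathway few genes were called. In the response to torin1, with 4.68% of all genes called higher and 6.33% lower, 1 gene was called in each of GATOR1 (*Nprl3*, a subunit of this inhibitor of MTORC1 signalling, at 0.43) and the MTORC1 core (*Mtor*, the kinase, at 0.42), both with a higher effect in DKO. For GATOR2 and BORC edgeR called 0 of 5 and 0 of 8 genes, with 2 in each list at an unadjusted p under 0.05, and for the MEK and ERK kinases 0 of 4, with 0 at that level. In the response to MK-8722, edgeR called 0 genes of these lists, with 1 in GATOR2 and 1 in the MTORC1 core at an unadjusted p under 0.05. DESeq2 and limma voom were not summarised for these lists. The median log2 difference over the 5 Ragulator genes was -0.29 for torin1 and -0.27 for MK-8722, beside -0.01 and 0.01 over all genes tested and -0.88 and -0.78 over the 4 RRAG genes. The RRAG medians include *Rragb* and *Rragd*, whose starting levels were low in WT and unlike between the genotypes.

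Across the 24 libraries, levels of the members went together, with Pearson correlations of log2 CPM from 0.522 for *Lamtor1* and *Lamtor2* to 0.952 for *Lamtor3* and *Lamtor4*. After the group means were subtracted, *Lamtor3* and *Lamtor4* still correlated at 0.643, whereas *Lamtor3* and *Lamtor5* were at 0.00. These are descriptions over libraries that share groups, depth and normalization. The genes most like *Lamtor3* were *Atp6v0c* (r = 0.977) and *Atg2b* (r = 0.973), those most like *Lamtor1* were *Coprs* (r = 0.944) and *Tom1* (r = 0.930), and those most like *Lamtor4* were *Agfg2* (r = 0.956) and *Trim54* (r = 0.952), over 24 libraries. For *Lamtor2* they were *Mia3* (r = 0.959) and *Dctn6* (r = 0.957), and for *Lamtor5* *Mrps18a* (r = 0.931) and *Asna1* (r = 0.906). To the mean of the members the nearest were *Atp6v0c* (r = 0.971), *Atg2b* (r = 0.961), *Cuta* (r = 0.959), *Atp6v0c-ps2* (r = 0.957), a pseudogene whose reads may come from *Atp6v0c*, and *Egln2* (r = 0.949).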

How the data were processed

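Libraries were made from polyadenylated RNA and read as pairs of 52 bp. The authors processed the reads with nf-core/rnaseq, using STAR and salmon on GRCm38 and taking account of molecular identifiers. What they deposited are salmon's estimated counts per gene and per transcript and TPM values. Their methods name edgeR for testing and limma for a batch correction whose batch is not stated. The labels give 1 batch, so no correction was made here. The estimated counts were rounded to whole numbers for the tests. Genes passing filterByExpr with a minimum count of 10 (15401) were scaled by TMM and fitted over all 24 libraries with 1 mean per group by edgeR 4.0.16 (quasi-likelihood in the form of edgeR 3; R 4.3.3, limma 3.58.1, DESeq2 1.42.0), leaving 18 residual degrees of freedom and a biological coefficient of variation of 10.7%. P-values were adjusted by Benjamini-Hochberg over all genes tested, in 11 comparisons. Shares used TPM and exact permutation tests in Python. The methods were tested on simulated data.

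Coordinates are from GENCODE release 21 for mouse. The members, partner lists and tests were chosen with earlier results of these data known. Named genes are the 5 members, *Tfeb*, *Tfe3*, the RRAG, folliculin and *Slc38a9* genes, the called gene of largest change per other list and response (1 list is not reported here), and by correlation 2 genes per member and 5 for their mean. Replicate numbers did not pair the libraries: correlations of deviations ran from -0.414 to 0.657 over 60 pairs, 13 of them over 0.1. Among 24 pairs of equal passage and genotype, 17 were over 0.1. Alternatives covered filters, scaling, tests, thresholds, blocks and left-out libraries.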

Additional observations from a re-analysis of the deposited data

Results flagged for a closer look

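In 3 of the 30 groups of 4 libraries examined (5 genes in 6 groups), 1 library lay far from the other three by Dixon's criterion, and chance alone is expected to give about 1 in 20. *Lamtor1* was at 82.3 CPM in the first torin1 replicate of WT, below the other three. In WT MK-8722 replicate 4, *Lamtor2* was lowest at 34.4 CPM and *Lamtor4* was lowest at 20.8 CPM.

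The drug effects of 3 genes differed between the genotypes by the edgeR interaction test. For torin1 the difference of log2 fold changes, DKO relative to WT, was -0.68 for *Lamtor1*, -0.97 for *Lamtor3* and -0.29 for *Lamtor4*. For MK-8722 it was -0.65 for *Lamtor1*, -0.68 for *Lamtor3* and -0.27 for *Lamtor4*. *Lamtor1* and *Lamtor3* kept both calls in every other setting and every fit that left out 1 library, whereas *Lamtor4* did not.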

How the results depend on the processing

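Of 1385 member values under other settings, 1257 kept their direction and call. Calls of *Lamtor1* and *Lamtor3* with MK-8722 in WT, with torin1 in DKO and in both responses held throughout. For torin1 in WT, 1 member was called higher with 10 counts in every library or library size alone. By false discovery rate alone, 1 was higher and 4 lower there (all genes: 5011 and 4320). With MK-8722 in DKO that rule gave 2 lower (1579). It gave 5 lower in DKO under MK-8722 (5008) and with torin1 against MK-8722 in WT (4386) and DKO (4284). Under MK-8722, 4 were lower in DKO with 10 counts in every library, library size alone or the passage block, and 2 to 4 in fits leaving out 1 library. Under DMSO, 0 were lower in DKO without a filter and 0 higher with library size alone. Against a fold change of 1.2, 0 and 0 were called, and leaving out 1 library gave 0 to 1 lower. Library size alone moved the median of all genes by up to -0.13 (log2) and the split of torin1 calls in WT from 4100 higher and 3153 lower to 5021 and 2337, of DKO against WT under torin1 from 3692 and 4283 to 2629 and 5623, and of the torin1 response from 721 and 975 to 472 and 1306. In that response, 1012 and 764 genes were called without WT torin1 replicate 1, 1099 and 848 without replicate 3, and 1051 and 749 without the WT libraries of passage 11. With MK-8722, 2432 and 2343 genes were called in WT by false discovery rate alone and 766 and 190 against a fold change of 1.2, beside 1583 and 904, and in DKO 1619 and 1579 or 141 and 33, beside 843 and 495. Against that fold, the torin1 response had 141 and 313, and the MK-8722 response 19 and 254, beside 218 and 628, or 486 and 906 with passage within genotype as a block.

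With the replicate block *Lamtor4* lost its call in the MK-8722 response (-0.27, edgeR adjusted p = 0.0579), leaving 2 members lower. Without the WT libraries of passage 11, *Lamtor4* lost its call with MK-8722 in WT (0.26) and in both responses (-0.25 and -0.24), and without the DKO libraries of passage 8 in the MK-8722 response (-0.27) and under torin1 (-0.23). Both settings were chosen after seeing the data. The causes were not tested.

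Signs changed for uncalled values near 0. The log2 value of *Lamtor2* with MK-8722 in WT was -0.00067 without the WT libraries of passage 11 and -0.022 to 0.038 with 1 library left out. With MK-8722 in DKO, *Lamtor4* was at -0.0027 without a filter and from -0.030 to 0.047 with 1 library left out, and *Lamtor2* from -0.022 to 0.039. For DKO against WT under DMSO, *Lamtor4* was at -0.00069 with 10 counts in every library, -0.047 with library size alone, -0.0099 with the passage block, -0.0093 without the WT libraries of passage 11 and from -0.020 to 0.048 with 1 library left out, and *Lamtor5* was at -0.011 with library size alone. In the MK-8722 response, *Lamtor2* was at -0.0034 without a filter and from -0.032 to 0.038 with 1 library left out. As shares of CPM not divided by length, 21 differences passed in place of 22, losing *Lamtor4* in DKO against WT under torin1, and signs changed for *Lamtor4* with torin1 in DKO (0.013 points), *Lamtor3* with MK-8722 in DKO (0.044 points) and in DKO against WT under DMSO (-0.23 points), *Lamtor2* in DKO against WT under torin1 (0.34 points) and *Lamtor1* under MK-8722 (0.25 points). As shares of estimated counts, they did for Lamtor1-201 with torin1 in WT (0.20 points) and in DKO against WT under torin1 (-0.47 points), for Lamtor3-203 with MK-8722 in WT (0.11 points) and for Lamtor2-203 with torin1 in DKO (-0.043 points). Share tests on 3 against 4 cannot pass. Correlations of the most similar genes fell to 0.134 to 0.651 after subtracting group means.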
